A study of Mus musculus with 6 samples.

Results

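The genes encoding the nuclear subunits of the oxidative phosphorylation machinery were examined in mouse bone marrow-derived eosinophils (BMDEs) that had been treated with TH2 cell EVs or sham treated. Members were chosen by gene symbol: every symbol starting with Nduf, Uqcr or Atp5, the genes Sdha to Sdhd, and every symbol starting with Cox4 to Cox8, without the 5 rows whose symbol carries -ps. This gave 91 of the 16254 genes in the count table. They comprised 39 subunit genes of complex I, 8 complex I assembly factor genes, 4 genes of complex II, 8 of complex III, 15 of complex IV and 17 of complex V. The complex I genes include Ndufa11b, which RefSeq classes as a transcribed pseudogene, and Ndufa4 was placed in complex IV, where its protein resides. The 3 sham-treated cultures received unconditioned medium that had been processed in parallel. The 3 EV-treated cultures received 5e9 EVs per ml from activated TH2 cells, isolated by size exclusion chromatography. Each treatment lasted 24 h. All 6 cultures came from C57BL/6 bone marrow, were grown first with FLT3 ligand and stem cell factor and then with IL-5, and were sequenced after poly(A) selection. The donor mice were 6 to 12 weeks old. The labels call the 3 cultures of a group biological replicates without naming the animals, so the p-values measure the spread between these cultures.

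Oxidative phosphorylation takes place in the inner mitochondrial membrane. Complex I accepts electrons from NADH and complex II from succinate, ubiquinone carries them to complex III, cytochrome c carries them to complex IV, and complex IV passes them to oxygen. Complexes I, III and IV pump protons, and complex V, the ATP synthase, uses the returning protons to make ATP. Most subunits are encoded in the nucleus and imported, and a few hydrophobic core subunits are encoded by mitochondrial DNA. Eosinophils are granulocytes with few but functional mitochondria, and their respiration has been studied in relation to activation and survival.

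Library totals were 23697620 to 32808674 counts in the sham-treated group and 32260914 to 37874426 in the EV-treated group. Of 10 eosinophil marker genes, 8 were higher in EV-treated cultures and none lower (edgeR, adjusted p under 0.01), and their summed level was 29833 to 37618 CPM (counts normalised to library size, here with TMM scaling) against 42728 to 47796 CPM. None was lower at an unadjusted p under 0.05 (0 genes), and DESeq2 and limma also called 0 lower. Of 10 macrophage marker genes, 8 were lower and 1, Adgre1, was higher. The summed macrophage level ran from 1892 to 2748 CPM in sham-treated cultures, lowest in replicate 1, and from 1347 to 1529 CPM in EV-treated cultures. Mast cell and basophil markers summed to 70.8 to 102 CPM against 190 to 236 CPM, with 3 of 5 higher. Neutrophil markers summed to 514 to 598 against 563 to 672 CPM, but the sum covers changes in both directions, since 2 of the 8 tested were higher and 4 lower, with log2 fold changes from -2.02 to 2.65. T cell markers summed to at most 7.47 CPM in any culture. In bulk RNA, fewer cells of a type and less RNA per cell cannot be told apart. The part of these marker differences in the results that follow was not tested. The paper reports that such EVs raised the survival of cultured eosinophils and lowered their apoptosis. The sham-treated and EV-treated cultures may therefore also have differed in their share of dying cells. The part of such a difference in the results that follow was not tested either.

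EV treatment was accompanied by higher transcript levels for some subunits and lower levels for others, with calls in both directions only within complexes I and V. The median over all members lay close to that of all genes. Of the 91 members, 89 passed the filter on low counts, and the 2 that did not were Cox6a2 and Ndufa11b. By edgeR's quasi-likelihood test at an adjusted p under 0.01, 9 members were higher in EV-treated cultures (10.1% of those tested, where 12.1% of all 13498 genes tested were higher). Another 7 were lower (7.87%, where 11.6% of all genes were lower). Together 18.0% of the members were called, against 23.7% of all genes. The higher members were Ndufb1, Ndufa3 and Ndufa6 of complex I, Cox6c, Cox8a and Cox5a of complex IV, and Atp5mpl, Atp5j and Atp5h of complex V. The lower members included Ndufc2, Ndufv1 and Ndufa8 of complex I, Sdha of complex II, Uqcrc2 of complex III and Atp5a1 of complex V. The changes were small: of the called members, only Ndufb1 reached a log2 fold change of 1 in either direction. Of all genes, 9.45% reached that size together with the adjusted p. Cox7a1 had an estimate of 1.40 but was not called. The levels of the 3 EV-treated and the 3 sham-treated cultures did not overlap for 38 of the 89 tested members (42.7%) and for 49.6% of all genes.

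The median log2 fold change over the tested members was 0.012, beside -0.014 over all genes. By complex it was -0.017 for complex I, -0.17 for its assembly factors, -0.34 for complex II, 0.018 for complex III, 0.18 for complex IV and 0.012 for complex V. The median of the assembly factors moved to -0.48 without sham replicate 1 and to 0.031 without sham replicate 2. Without TMM scaling, the median of all genes moved to -0.16, the medians of complexes III and V became negative (-0.13 and -0.14), and 5 members were higher and 13 lower. Upper quartile scaling gave 7 higher and 10 lower. Relative to the median of all genes, complex IV stood at 0.20 and complex II at -0.32, and with the trend of counts with transcript length removed these values were 0.15 and -0.32. Leaving out EV replicate 2 or EV replicate 3 left 5 higher members, and leaving out EV replicate 1, 2 or 3 each left 3 lower ones.

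**Figure D1:**
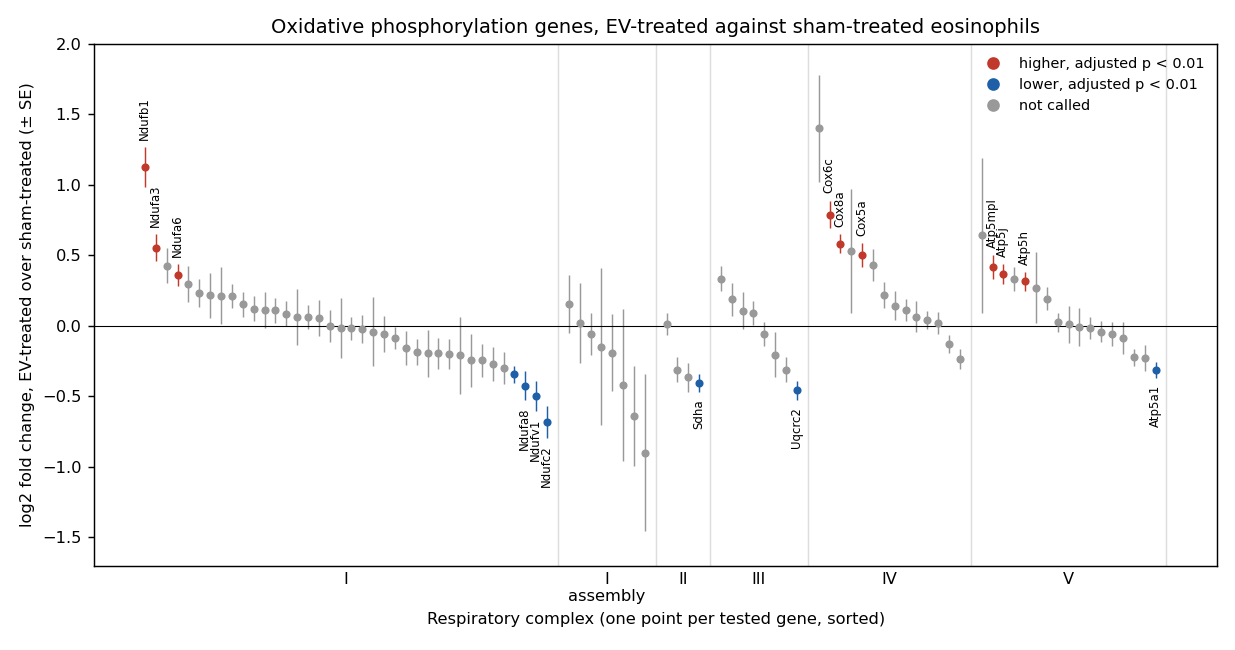
Log2 fold change between EV-treated and sham-treated BMDEs (vertical axis, error bars show the SE of the fit) for the 89 tested members, grouped by complex and sorted within it (horizontal axis). The 9 members called higher are red and the 7 called lower are blue, and complexes I and V hold members of both kinds.

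The promoters of 11 called members were available from RefSeq (build GRCm38.p6, 250 bases before to 50 after the start), and 75 of all 91 members had one. Motifs of factors known for nuclear respiratory genes were searched as exact letters on both strands: GCGCATGC for NRF1, CCGGAAG for ETS factors such as GABPA, AAGATGGCG for YY1 and TCAAGGTCA for ERR. The last letters of CCGGAAG are the opening letters of AAGATGGCG, so matches to these motifs can overlap. The NRF1 letters were in 16.0% of the member promoters, in 5.90% of 9999 tested genes with a promoter and in 3.05% of all 27025 genes with one. The corresponding shares were 25.3%, 20.1% and 9.93% for ETS, 10.7%, 3.58% and 1.64% for YY1, and 2.67%, 0.290% and 0.466% for ERR. At least 1 motif was present for 4 of 7 higher members with a promoter and for 1 of 4 lower ones, beside 44% of all members and 27.3% of tested genes with a promoter. The difference between higher and lower members was not tested. The stretches from 100 bases before to 10 after the start are shown for the called members of complexes I, IV and V with a match, and for Ndufb1 and Ndufc2, the most raised and most lowered called members, which had none. Capitals mark the matched letters, and Cox8a had a further ETS match downstream of the stretch shown.

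Cox8a (higher; chr19:7217607-7217716, minus strand, ETS): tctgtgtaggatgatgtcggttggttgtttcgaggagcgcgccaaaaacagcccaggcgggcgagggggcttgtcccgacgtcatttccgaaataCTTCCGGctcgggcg
Atp5j (higher; chr16:84834967-84835076, minus strand, YY1 and ETS): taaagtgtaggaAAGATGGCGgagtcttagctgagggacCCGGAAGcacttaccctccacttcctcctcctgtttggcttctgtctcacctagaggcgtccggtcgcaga
Atp5h (higher; chr11:115419910-115420019, minus strand, ETS): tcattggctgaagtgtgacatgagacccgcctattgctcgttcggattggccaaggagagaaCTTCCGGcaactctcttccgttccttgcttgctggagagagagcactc
Ndufa6 (higher; chr15:82354282-82354391, minus strand, NRF1): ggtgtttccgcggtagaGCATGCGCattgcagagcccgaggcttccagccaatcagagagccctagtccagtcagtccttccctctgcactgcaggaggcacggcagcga
Ndufb1 (higher; chr12:101975729-101975838, minus strand, no match): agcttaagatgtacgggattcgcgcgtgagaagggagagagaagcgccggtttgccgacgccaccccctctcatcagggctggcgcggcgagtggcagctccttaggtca
Ndufa8 (lower; chr2:36049329-36049438, minus strand, NRF1): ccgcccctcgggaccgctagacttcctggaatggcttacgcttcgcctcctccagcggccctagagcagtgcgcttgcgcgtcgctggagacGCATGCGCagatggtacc
Ndufc2 (lower; chr7:97399903-97400012, plus strand, no match): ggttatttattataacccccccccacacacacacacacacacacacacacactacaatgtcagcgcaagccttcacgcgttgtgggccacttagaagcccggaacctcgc

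Members of both directions carried the NRF1 letters, Ndufa6 upstream of its start and Ndufa8 close to it. The ETS letters were found in Cox8a, Atp5j and Atp5h and in 16 members that were not called. A match is a description of the letters and was not tested as a binding site.

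Complex I, the NADH dehydrogenase, is built from catalytic core subunits and a larger number of accessory subunits. Of its 38 tested subunit genes, 3 were higher and 4 lower (7.89% and 10.5%, beside 12.1% and 11.6% of all genes). The changes ran from -0.68 to 1.13 on the log2 scale. The largest change belonged to Ndufb1, an accessory subunit of the membrane arm. RefSeq lists this gene as protein coding, whereas GENCODE vM21 names it Ndufb1-ps and gives it no coding transcript. Its level was 12.7, 9.61 and 13.2 CPM in the sham-treated cultures and 25.5, 24.0 and 28.2 CPM in the EV-treated ones. All EV-treated cultures thus lay above all sham-treated ones, with means of 11.8 ± 1.94 and 25.9 ± 2.12 CPM (SD, n = 3 each). The log2 fold change was 1.13 ± 0.14 (SE; edgeR adjusted p = 0.00016), and the call held in all 14 alternative fits.

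Ndufa3, another small accessory subunit, was measured at 26.5, 24.0 and 30.1 CPM after sham treatment and at 38.6, 40.9 and 38.8 CPM after EV treatment. The groups did not overlap and the log2 fold change was 0.56 ± 0.10 (SE; edgeR adjusted p = 0.00149). Ndufa6, which anchors the mitochondrial acyl carrier protein to the complex, was at 52.0, 48.3 and 46.1 CPM against 63.5, 59.0 and 66.0 CPM, a log2 fold change of 0.36 ± 0.08 (SE; edgeR adjusted p = 0.00438). For Ndufa6 too the groups did not overlap. Ndufa3 lost its call without EV replicate 2 (edgeR adjusted p = 0.0116). Ndufa6 lost it without sham replicate 2 or 3 or EV replicate 1 or 3, without TMM scaling, with upper quartile scaling and with the length trend removed (edgeR adjusted p = 0.0101 to 0.0448).

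In the opposite direction, the accessory membrane arm subunit Ndufc2 was at 20.8, 19.5 and 19.7 CPM in sham-treated cultures and at 12.95, 12.9 and 11.6 CPM in EV-treated ones. The EV-treated values lay close together, all below the sham-treated values, and the log2 fold change was -0.68 ± 0.11 (SE; edgeR adjusted p = 0.00108). Ndufa8, an accessory subunit on the intermembrane space side, was at 41.4, 42.7 and 33.6 CPM against 30.2, 28.9 and 28.6 CPM. Sham replicate 3 lay nearest to the EV-treated cultures, and the log2 fold change was -0.42 ± 0.10 (SE; edgeR adjusted p = 0.00874). Ndufc2 lost its call without EV replicate 3 (edgeR adjusted p = 0.0106). Ndufa8 lost it without the low-count filter and without sham replicate 1 or 2 or any EV replicate (edgeR adjusted p = 0.0105 to 0.0473).

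The nuclear core subunits of complex I include those that carry its flavin and iron-sulfur clusters. Ndufv1, which binds the flavin and oxidises NADH, was at 31.6, 37.7 and 41.5 CPM in sham-treated cultures and at 25.8, 25.9 and 26.5 CPM in EV-treated ones. Its log2 fold change was -0.50 ± 0.11 (SE; edgeR adjusted p = 0.0047), with a wider spread in the sham-treated group. Every EV-treated culture was below every sham-treated one. Ndufs3, Ndufs7 and Ndufv2 were not called and had log2 fold changes of -0.27 ± 0.12, -0.20 ± 0.10 and -0.19 ± 0.09 (SE). Ndufs1 and Ndufs8, both carriers of iron-sulfur clusters, were not called either and stood at -0.02 ± 0.10 and 0.00 ± 0.11 (SE). The call of Ndufv1 was lost without sham replicate 2 or 3 or any EV replicate (edgeR adjusted p = 0.0143 to 0.0265).

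The Nduf assembly factors help to build complex I and are not part of the finished enzyme. None of the 8 was called by edgeR, DESeq2 or limma, and 0 had an unadjusted p under 0.05. These transcripts were scarce, and their log2 fold changes had SEs of up to 0.56. Ndufaf8 had the highest value at 0.15 ± 0.21 (SE), followed by Ndufaf1 at 0.02 ± 0.28 (SE). Ndufaf2 had the lowest at -0.90 ± 0.56 (SE), with 1.05, 3.18 and 1.38 CPM in sham-treated and 1.46, 0.667 and 0.875 CPM in EV-treated cultures, so that the groups overlapped. Ndufaf5 was at 1.93, 3.42 and 2.32 CPM against 1.75, 1.5 and 1.66 CPM, a log2 fold change of -0.64 ± 0.36 (SE; edgeR adjusted p = 0.199).

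Complex II, succinate dehydrogenase, is shared with the TCA cycle and has no mitochondrially encoded subunit. Sdha, the flavoprotein that oxidises succinate, was the member called. It was at 147, 156 and 147 CPM in sham-treated cultures and at 110, 119 and 111 CPM in EV-treated ones, without overlap. The log2 fold change was -0.40 ± 0.06 (SE; edgeR adjusted p = 0.000659), and Sdha was called lower in all 14 alternative analyses. Sdhb, the iron-sulfur subunit, was at 45.8, 45.5 and 55.2 CPM against 38.6, 38.4 and 41.1 CPM. Sdhc, a membrane anchor, was at 39.7, 51.7 and 48.2 CPM against 35.8, 34.6 and 37.9 CPM. Neither pair of groups overlapped, but the log2 fold changes of -0.31 ± 0.09 and -0.36 ± 0.10 (SE) missed the threshold (edgeR adjusted p = 0.0249 and 0.0205). Sdhd, the other anchor, was at 41.2, 47.9 and 46.9 CPM against 45.3, 46.2 and 45.9 CPM, with overlapping groups and a log2 fold change of 0.02 ± 0.08 (SE). Without sham replicate 1 Sdhc was called lower (edgeR adjusted p = 0.00135), and without TMM scaling Sdhb and Sdhc both were.

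Complex III, the cytochrome bc1 complex, had 1 lower and no higher member among 8 (12.5% lower, beside 11.6% of all genes). DESeq2 called 1 higher and limma 0, and 1 was higher at an unadjusted p under 0.05 in edgeR. Uqcrc2, a core protein on the matrix side, was at 109, 109 and 99.1 CPM after sham treatment and at 72.9, 81.1 and 77.0 CPM after EV treatment. The groups were well apart, the log2 fold change was -0.46 ± 0.07 (SE; edgeR adjusted p = 0.000639), and the call held in all 14 alternative analyses. Its partner Uqcrc1 was at 84.4, 100 and 105 CPM against 75.5, 75.0 and 83.1 CPM, and the log2 fold change of -0.31 ± 0.09 (SE) was not called (edgeR adjusted p = 0.0215). Uqcrh, the hinge protein that contacts cytochrome c1, was at 67.8, 55.3 and 61.9 CPM against 75.2, 74.8 and 83.6 CPM. That difference was 0.34 ± 0.09 on the log2 scale (SE) and also missed the threshold (edgeR adjusted p = 0.0132). Uqcrb, an accessory subunit, had a log2 fold change of 0.19 ± 0.12 and Uqcrfs1, the Rieske iron-sulfur protein, one of -0.06 ± 0.09 (SE). Uqcrc1 and Uqcrh were called by DESeq2, and by edgeR without sham replicate 1 (adjusted p = 0.00228 and 0.00397).

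Complex IV, cytochrome c oxidase, had 3 higher and no lower members among the 14 tested. The share called higher was 21.4%, where 12.1% of all genes were higher. Of the 14 log2 fold changes, 12 were above 0 (10 with upper quartile scaling and 7 without TMM scaling). The share below 0 was 14.3%, where 51.4% of all genes were below 0. In edgeR 1 was lower at an unadjusted p under 0.05, DESeq2 and limma called 0 lower, and 2, Cox7c and Cox4i1, were called lower without TMM scaling. Its nuclear subunits surround a catalytic core encoded by mitochondrial DNA. Cox6c was at 23.1, 24.3 and 28.4 CPM in sham-treated cultures and at 43.6, 41.4 and 45.9 CPM in EV-treated ones, a log2 fold change of 0.79 ± 0.10 (SE; edgeR adjusted p = 0.000151). Cox8a, the form of subunit VIII found outside muscle, was at 77.0, 82.3 and 78.3 CPM against 113, 119 and 124 CPM. Its log2 fold change was 0.58 ± 0.06 (SE), with the smallest p among all members (edgeR adjusted p = 7.01e-05). Cox5a, on the matrix side, was at 51.2, 54.2 and 63.2 CPM against 77.1, 79.2 and 82.6 CPM, a log2 fold change of 0.50 ± 0.09 (SE; edgeR adjusted p = 0.00117). For these 3 genes the groups did not overlap, and each was called higher in all 14 alternative analyses.

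Several complex IV subunits exist as tissue isoforms encoded by separate genes. Cox7a1, the heart and skeletal muscle form of subunit VIIa, had the largest log2 fold change of all members, 1.40 ± 0.38 (SE), but was not called (edgeR adjusted p = 0.0167). It was scarce at 1.11, 1.71 and 0.788 CPM after sham treatment and 3.82, 2.89 and 2.82 CPM after EV treatment, or 38, 43 and 20 against 118, 104 and 100 counts. Per kilobase of transcript its mean level was 3.06 CPM in sham-treated and 8.08 CPM in EV-treated cultures, against 58.2 and 60.9 CPM per kilobase for the widely expressed isoform Cox7a2. Cox7a2 itself had a log2 fold change of 0.07 ± 0.11 and Cox7a2l, which takes part in joining complexes III and IV, one of 0.04 ± 0.06 (SE). The muscle isoform Cox6a2 had at most 9 counts in any culture and was not tested. Its common counterpart Cox6a1 was at 43.1, 43.5 and 57.6 CPM against 61.5, 62.9 and 69.9 CPM, without overlap but short of the threshold (log2 fold change 0.43 ± 0.11, SE; edgeR adjusted p = 0.0142). DESeq2 called both Cox7a1 and Cox6a1 higher, as did edgeR for Cox7a1 without sham replicate 2 (adjusted p = 0.00667) and for Cox6a1 without sham replicate 3 (0.00101).

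Cox6b1 and its testis isoform Cox6b2 were not called, with log2 fold changes of 0.11 ± 0.08 and 0.53 ± 0.44 (SE), and mean sham levels of 116 and 1.77 CPM per kilobase. Ndufa4 was at 0.14 ± 0.10 (SE). The lowest values in complex IV belonged to Cox7c and Cox4i1. Cox7c was at 82.1, 76.5 and 75.6 CPM against 64.1, 70.5 and 64.5 CPM, and Cox4i1, the general form of the largest nuclear subunit, was at 221, 215 and 215 CPM against 185, 205 and 206 CPM. Neither was called (log2 fold changes -0.23 ± 0.07 and -0.13 ± 0.06, SE; edgeR adjusted p = 0.0251 and 0.137), although the groups of both genes did not overlap. Of the 31-base words in the transcripts of Cox7c, 24.6% also occur in another gene, chiefly Gm10012, so its counts are less certain.

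Complex V consists of a catalytic F1 head, a membrane-embedded rotor and a peripheral stalk. Among its 17 genes, 3 were higher and 1 lower (17.6% and 5.88%, beside 12.1% and 11.6% of all genes). Atp5a1, the alpha subunit of the F1 head, was at 295, 314 and 325 CPM in sham-treated and at 247, 254 and 252 CPM in EV-treated cultures. The groups did not overlap and the log2 fold change was -0.31 ± 0.06 (SE; edgeR adjusted p = 0.00194). The catalytic beta subunit Atp5b was at 273, 307 and 305 CPM against 246, 257 and 255 CPM, also without overlap, and its log2 fold change of -0.22 ± 0.06 (SE) was not called (edgeR adjusted p = 0.0189). Atp5c1, the gamma subunit of the central shaft, had overlapping groups and a log2 fold change of 0.19 ± 0.08 (SE). Atp5a1 lost its call when any EV replicate was left out (edgeR adjusted p = 0.013 to 0.0143), and Atp5b was called lower without sham replicate 1 (0.00225) and by DESeq2.

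The higher members of complex V were small. Atp5j, coupling factor F6 of the peripheral stalk, was at 33.1, 32.0 and 33.2 CPM after sham treatment and at 41.8, 42.8 and 42.2 CPM after EV treatment, a log2 fold change of 0.37 ± 0.07 (SE; edgeR adjusted p = 0.003). Atp5h, subunit d of the same stalk, was at 76.3, 71.1 and 77.8 CPM against 88.8, 96.3 and 95.5 CPM, a log2 fold change of 0.32 ± 0.07 (SE; edgeR adjusted p = 0.00442). Atp5mpl, a small proteolipid of the membrane part, was at 24.2, 23.2 and 25.2 CPM against 33.2, 31.1 and 32.4 CPM, a log2 fold change of 0.42 ± 0.09 (SE; edgeR adjusted p = 0.0037). Each rise separated the groups completely, and each lost its call without TMM scaling. Atp5j and Atp5mpl lost it when any EV replicate was left out (edgeR adjusted p = 0.0149 to 0.0236), and Atp5h without sham replicate 2 or EV replicate 2 or 3 (0.014 to 0.0269). Atp5h also lost it with upper quartile scaling (edgeR adjusted p = 0.0107), and both Atp5h and Atp5mpl with the length trend removed. Atp5h was the only called member with at least 10% of its 31-base words in another gene (25.4%, chiefly Gm10250).

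Subunit c, which forms the rotor ring, is made from 3 genes whose mature proteins are identical. Atp5g1 had a log2 fold change of -0.01 ± 0.13 and Atp5g3 one of -0.22 ± 0.09 (SE), and neither was called. Atp5g2 had the largest estimate of complex V at 0.64 ± 0.55 (SE), with 3.18, 0.437 and 2.76 CPM against 3.76, 2.92 and 3.36 CPM. Sham replicate 2 was the lowest culture by far, and the groups overlapped. Without that culture the estimate was 0.17 and no longer the largest of the complex. Of its 31-base words, 40.2% are shared, chiefly with Gm10175, which was counted at 56.2 to 69.4 CPM, so reads of Atp5g2 may have been assigned to either gene.

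**Figure D2:**
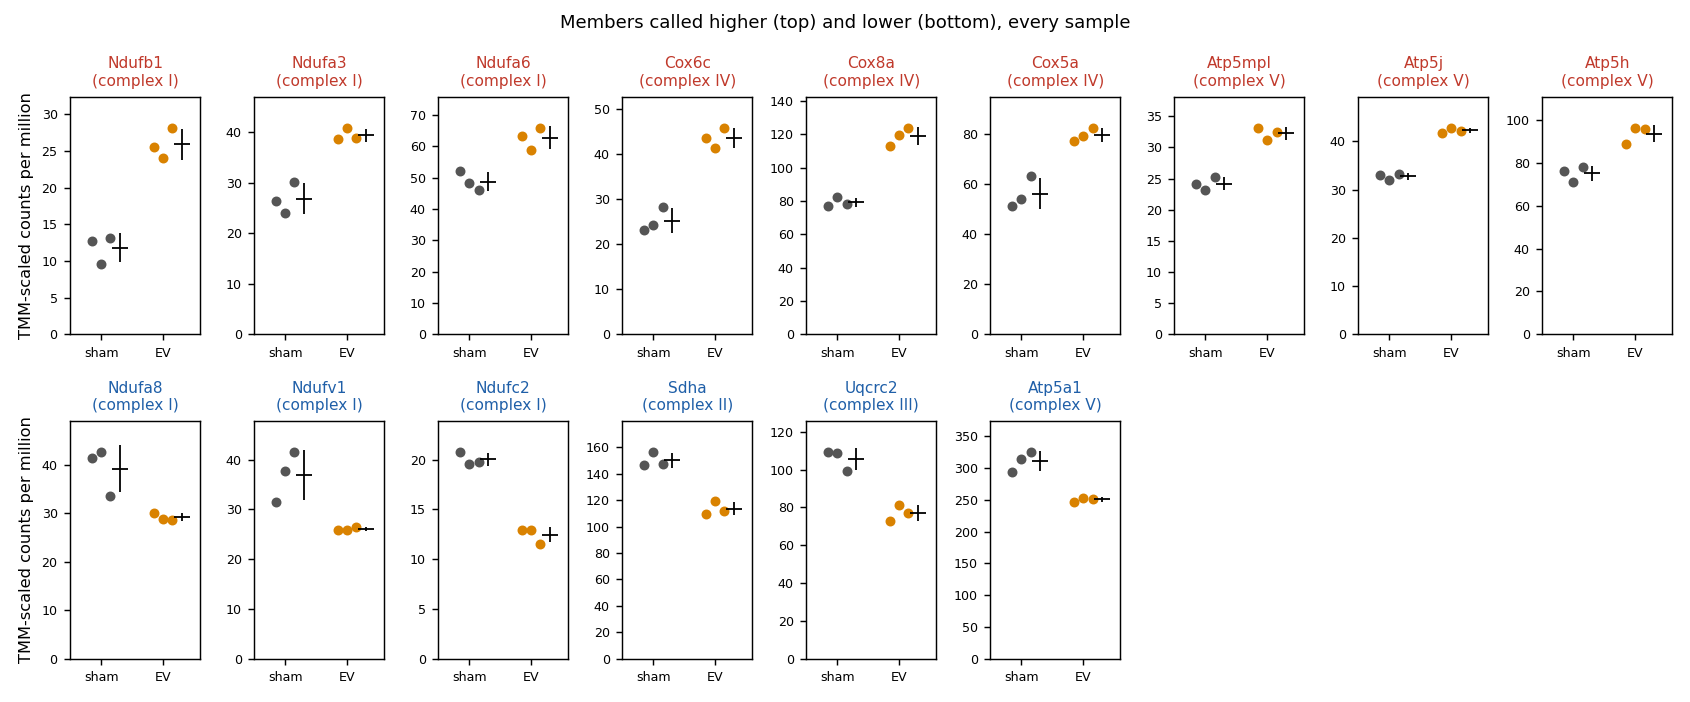
TMM-scaled CPM of 15 of the 16 called members in each of the 6 cultures (vertical axes from 0), sham treated in grey and EV treated in orange, with the mean and SD (n = 3) in black beside the points. The 9 higher members are in the upper row and 6 of the 7 lower members in the lower row. In none of the 15, picked by the adjusted p of the same values, do the groups overlap, nor do they in 49.6% of all genes.

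The higher members with a coding length encode small proteins, and most of the lower ones encode large proteins. Most members of the whole set have up to 200 codons. Ndufb1 has no coding length, and the other 8 higher members have 58 to 161 codons, with a median of 96. The 7 lower members have 120 to 664 codons. Among the 23 tested members with up to 100 codons, 4 were higher, and the median log2 fold change was 0.22. Among the 40 with over 100 and up to 200 codons, 4 were higher and 2 lower, with a median of 0.023. The 9 members with over 200 and up to 300 codons had a median of -0.06. Of the 15 longer ones, 5 were lower, and the median was -0.30. Over all genes tested, 12.1% were higher and 11.6% lower. In transcripts of up to 600 bases these shares of all genes were 7.08% and 5.48%.

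Across 87 tested members with a coding length, Spearman's rho between log2 fold change and codons was -0.55, and across 89 members rho with transcript length was -0.48. These points share the same 6 libraries. Across 12963 of all genes tested, rho with transcript length was -0.05, and across 78 mitochondrial ribosomal protein genes it was -0.13. In transcripts of up to 600 bases, the median log2 fold change was 0.27 for 23 members and 0.10 for all 438 genes of that length. Between 1500 and 2500 bases it was -0.19 for 13 members and -0.02 for 2874 genes. When the trend of counts with transcript length was removed from each library, rho with codons was -0.47, 6 members were higher and 8 lower. The 3 calls lost were Ndufa6, Atp5mpl and Atp5h, and Cox7c was then called lower.

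**Figure D3:**
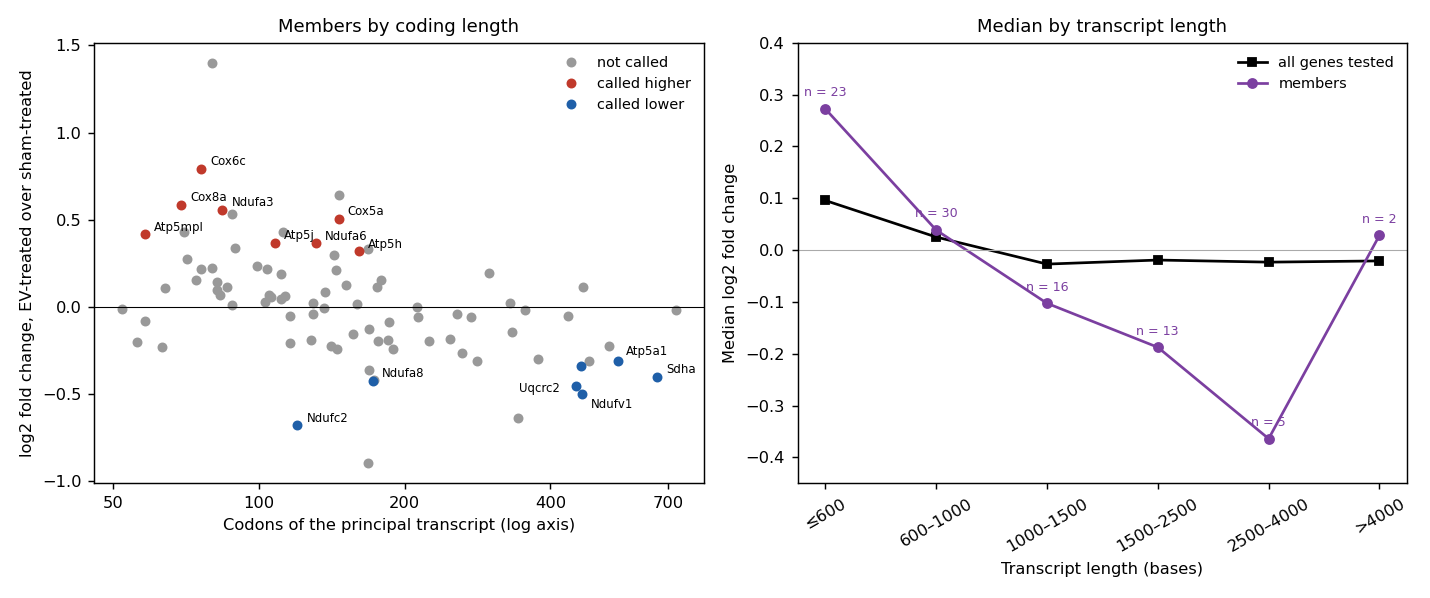
Left, log2 fold change between EV-treated and sham-treated cultures against the number of codons (log axis) for the 87 tested members with a coding length, with called members in colour. Right, median log2 fold change in classes of transcript length for members (purple) and all genes tested (black): the members run from 0.27 to -0.36 over the first 5 classes, the fifth holding 5 members and the last, at 0.03, only 2.

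A chosen list held 14 nuclear genes for subunits that bind redox groups, substrates or nucleotides or form part of the enzyme cores. Of them, 4 were lower (Ndufv1, Sdha and Atp5a1 among them) and none higher. That is 28.6%, where 11.6% of all genes were lower. Uqcrc2, a core protein of complex III that was also called lower, was not on this list. The list had a median log2 fold change of -0.25 beside -0.014 over all genes. With the unadjusted p under 0.05, edgeR found 8 lower and 1 higher, and DESeq2 and limma called 0 higher. Of these 14 log2 fold changes, 12 were below 0 (85.7%), as were 51.4% of those of all genes.

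Summed over all members, the transcripts made up 0.372% to 0.439% of the counts. As CPM of the library totals, the sum was 4079, 4260 and 4389 in sham-treated and 3717, 3822 and 3815 in EV-treated cultures, so that the groups did not overlap. After TMM scaling it was 3909, 4010 and 4176 against 3883, 3999 and 4076 CPM, and the groups overlapped. The TMM factors were 1.04 to 1.06 in sham-treated and 0.936 to 0.958 in EV-treated libraries. Complex II was lower in every EV-treated culture on both scales, at 274, 302 and 297 CPM against 230, 238 and 236 CPM with TMM. The sum of complex III also stayed lower, at 401, 396 and 422 against 365, 373 and 391 CPM with TMM. Its largest falls were in Uqcrc2 and Uqcrc1, from means of 106 and 96.7 to 77.0 and 77.9 CPM. Of its 8 log2 fold changes, 4 were above 0. Complex IV overlapped on library totals and was higher with TMM, at 896, 893 and 937 against 962, 1018 and 1024 CPM. Complexes I and V did not overlap on library totals, where the EV-treated cultures were lower, and overlapped with TMM.

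**Figure D4:**
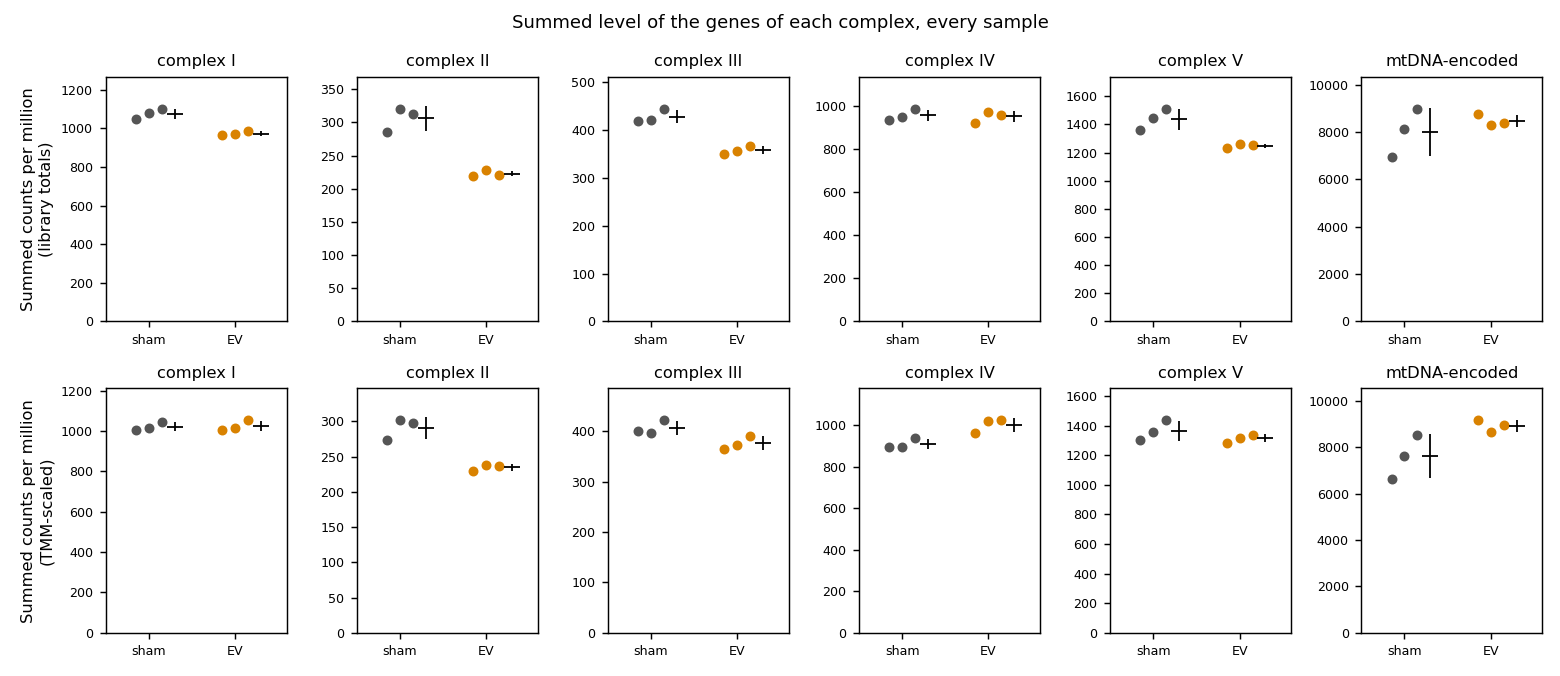
Summed CPM of the genes of each complex and of the 13 mitochondrially encoded subunits in every culture (vertical axes from 0), scaled by library totals in the upper row and by TMM in the lower row, with sham treated in grey, EV treated in orange and the mean and SD (n = 3) in black. The sums of complexes II and III are lower after EV treatment in both rows, whereas that of complex IV is apart only in the lower row.

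The 13 subunits encoded by mitochondrial DNA were examined beside the nuclear members. Of them, 5 were higher in EV-treated cultures and none lower, the median log2 fold change was 0.43, and all 13 estimates were above 0. The share called higher was 38.5%, where 12.1% of all genes were higher. Without TMM scaling mt-Nd1 and mt-Co1 stood at -0.05 and -0.09, and mt-Nd1 was at -0.08 without sham replicate 1. Summed over the 13 genes, the level was 6940, 8118 and 8972 CPM of the library totals in sham-treated and 8770, 8281 and 8373 CPM in EV-treated cultures, with overlapping groups and a log2 ratio of 0.081. With TMM scaling the sums did not overlap and the log2 ratio was 0.23. DESeq2 and limma called 9 and 7 higher and 0 lower, and at an unadjusted p under 0.05 edgeR found 10 higher and 0 lower. The difference between the mitochondrially and the nuclear-encoded subunits was not tested. Cytochrome b, mt-Cytb, was at 257, 304 and 365 CPM in sham-treated and at 481, 441 and 497 CPM in EV-treated cultures, a log2 fold change of 0.62 ± 0.11 (SE; edgeR adjusted p = 0.00165). The complex IV core subunit mt-Co2 was at 645, 745 and 855 CPM against 1014, 987 and 1042 CPM, a log2 fold change of 0.44 ± 0.09 (SE; edgeR adjusted p = 0.00342). In contrast mt-Co1, its largest core subunit, was at 3507, 3853 and 4122 CPM against 4095, 3940 and 3914 CPM, with overlapping groups and a log2 fold change of 0.06 ± 0.06 (SE).

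Among the complex I subunits, mt-Nd3 was at 12.1, 10.5 and 13.1 CPM against 19.3, 19.8 and 20.3 CPM, a log2 fold change of 0.73 ± 0.12 (SE; edgeR adjusted p = 0.00118). For mt-Nd4l the values were 21.7, 31.1 and 35.6 CPM against 68.1, 58.0 and 75.2 CPM, and the log2 fold change was 1.19 ± 0.16 (SE; edgeR adjusted p = 0.000308). Its gene overlaps mt-Nd4, which had a log2 fold change of 0.43 ± 0.11 (SE) and was not called, so the values of mt-Nd4l may include reads of its neighbour. mt-Nd6, encoded on the opposite strand to the others, was at 42.8, 44.4 and 54.5 CPM against 65.1, 67.6 and 62.3 CPM (log2 fold change 0.46 ± 0.10, SE; edgeR adjusted p = 0.00398). The strand setting of the counting is not given, and reads of transcripts from the other strand cannot be told apart from its own. The call of mt-Nd6 was lost without TMM scaling, with the length trend removed and when any culture but sham replicate 3 was left out (edgeR adjusted p = 0.0109 to 0.0292). That of mt-Co2 was lost without TMM scaling, sham replicate 2 or any EV replicate (0.0104 to 0.0261), and that of mt-Cytb without EV replicate 3 (0.0102). The subunits mt-Nd5, mt-Nd2 and mt-Nd1 stood at 0.36 ± 0.11, 0.22 ± 0.15 and 0.10 ± 0.16 (SE) and were not called, nor was mt-Co3 at 0.38 ± 0.11 (SE).

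The ATP synthase subunits mt-Atp8 and mt-Atp6, whose genes also overlap and may share reads, were at 1.17 ± 0.30 and 0.25 ± 0.08 (SE) and missed the threshold (edgeR adjusted p = 0.0117 and 0.0405). The sham-treated cultures differed among themselves: replicate 1 was the lowest of the 6 cultures for 12 of the 13 genes, and replicate 3 was the highest sham-treated culture for all 13. Replicate 1 was also the sham-treated culture with the lowest summed macrophage markers and the highest summed eosinophil markers, and the part of these in the spread was not tested. The number of higher genes fell to 3 without sham replicate 2, EV replicate 1 or EV replicate 2 and to 2 without EV replicate 3, and it was 10 without sham replicate 3. Without TMM scaling it was 3. The median remained between 0.31 and 0.55 when any 1 culture was left out.

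**Figure D5:**
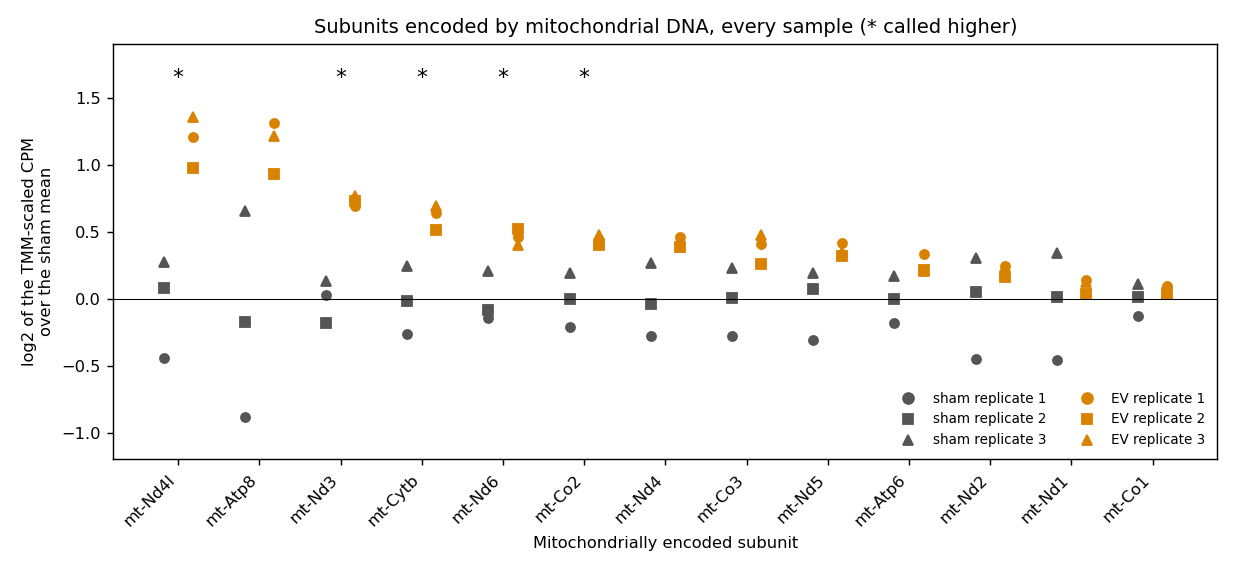
Level of each of the 13 mitochondrially encoded subunits in every culture, as log2 of the TMM-scaled CPM over the mean of the sham-treated cultures (vertical axis), with sham treated in grey, EV treated in orange, a marker shape per replicate number and an asterisk over the 5 genes called higher. Sham replicate 1 lies lowest for all genes but mt-Nd3.

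Other genes around the respiratory chain were examined beside the members. Cytochrome c (Cycs) and cytochrome c1 (Cyc1) were not called, with log2 fold changes of -0.03 ± 0.16 and -0.21 ± 0.09 (SE). Of these 2, edgeR found 1 lower and 0 higher at an unadjusted p under 0.05, and DESeq2 and limma called 0. None of 8 further complex I assembly factors, 6 of complex III and 6 of complex V was called by edgeR. These lists held 2, 1 and 3 genes with an unadjusted p under 0.05, DESeq2 called 1 lower complex I factor and limma 0. Of 4 complex II assembly factors 1 was higher: Sdhaf2, which attaches the flavin to Sdha, was at 38.2, 36.9 and 37.5 CPM against 45.8, 50.3 and 49.2 CPM (log2 fold change 0.37 ± 0.07, SE; edgeR adjusted p = 0.00324), opposite in direction to Sdha. That call was lost without TMM scaling and without EV replicate 2 or 3 (edgeR adjusted p = 0.0212 to 0.0385). Of 21 tested complex IV factors only Coa7 was called, at 3.80, 5.12 and 4.69 CPM against 1.72, 1.58 and 1.83 CPM (log2 fold change -1.40 ± 0.27, SE; edgeR adjusted p = 0.00251). It lost its call when any EV replicate was left out (edgeR adjusted p = 0.0109 to 0.0151). Sdhaf2 made up 25% of its list, where 12.1% of all genes were higher. Coa7 made up 4.76% of its list, where 11.6% of all genes were lower.

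Upstream of the chain, 1 of 13 TCA cycle enzymes was higher and 1 lower (7.69% each, beside 12.1% and 11.6% of all genes). Malate dehydrogenase Mdh2 was at 247, 215 and 234 CPM against 294, 308 and 318 CPM (log2 fold change 0.40 ± 0.07, SE; edgeR adjusted p = 0.000909). Idh3b, a subunit of NAD-dependent isocitrate dehydrogenase, was at 66.5, 70.3 and 67.3 CPM against 48.8, 48.9 and 51.9 CPM (log2 fold change -0.45 ± 0.07, SE; edgeR adjusted p = 0.000494). Among 12 genes of the pyruvate dehydrogenase step, 1 was higher and 2 lower (8.33% and 16.7%, beside 12.1% and 11.6% of all genes). Pdk3, a kinase that inhibits pyruvate dehydrogenase, was at 23.5, 19.0 and 27.1 CPM against 71.4, 70.6 and 71.5 CPM, a log2 fold change of 1.62 ± 0.12 (SE; edgeR adjusted p = 3.79e-06). Dlat, the acetyltransferase of the enzyme, was at 33.3, 40.2 and 37.4 CPM against 20.3, 22.1 and 19.4 CPM, a log2 fold change of -0.84 ± 0.10 (SE; edgeR adjusted p = 0.000123). Pdk4, another of these kinases, had 19, 49 and 25 counts against 4, 0 and 1 counts and was called lower (edgeR adjusted p = 0.00773), a call lost without the low-count filter and when any culture but sham replicate 1 was left out (edgeR adjusted p = 0.0106 to 0.0606).

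Of 15 regulators of mitochondrial biogenesis only Esrra, the nuclear receptor ERR alpha, was called, at 86.0, 89.9 and 86.1 CPM against 109, 109 and 112 CPM (log2 fold change 0.33 ± 0.06, SE; edgeR adjusted p = 0.0017). Esrra lost its call without TMM scaling and without EV replicate 3 (edgeR adjusted p = 0.0366 and 0.0115). Timm23, the channel of the inner membrane import machinery, was the 1 called gene among 17 for import, at 35.5, 40.1 and 42.3 CPM against 69.1, 64.3 and 68.5 CPM (log2 fold change 0.78 ± 0.08, SE; edgeR adjusted p = 4.98e-05). Esrra and Timm23 made up 6.67% and 5.88% of their lists, where 12.1% of all genes were higher. Of 78 mitochondrial ribosomal protein genes 2 were higher and 4 lower (2.56% and 5.13%, beside 12.1% and 11.6% of all genes). Their median log2 fold change was -0.13. The most changed were Mrpl33 at 0.94 ± 0.08, Mrpl38 at -1.09 ± 0.18 and Mrpl52 at -0.88 ± 0.20 (SE), and Mrpl52 lost its call when any culture but sham replicate 1 was left out (edgeR adjusted p = 0.014 to 0.0306).

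Among 13 tested genes for transport across the mitochondrial membranes and redox defence, 2 were higher and 3 lower (15.4% and 23.1%, beside 12.1% and 11.6% of all genes). Slc25a4, an ADP/ATP carrier of the inner membrane, was at 44.8, 53.5 and 49.0 CPM in sham-treated and at 20.8, 20.6 and 18.7 CPM in EV-treated cultures. Its groups were far apart, with a log2 fold change of -1.29 ± 0.09 (SE; edgeR adjusted p = 4.52e-06). Vdac1, the outer membrane channel, was at 107, 117 and 118 CPM against 76.1, 82.8 and 77.6 CPM, a log2 fold change of -0.53 ± 0.07 (SE; edgeR adjusted p = 0.000199). Ucp2, an inner membrane carrier named for uncoupling, was at 634, 734 and 675 CPM against 904, 916 and 986 CPM, a log2 fold change of 0.46 ± 0.07 (SE; edgeR adjusted p = 0.000385). In each of these 3 genes, picked as the most changed called genes of the list, the groups did not overlap. Nor did they in 49.6% of all genes.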

How the data were processed

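Bulk RNA-seq of 3 sham-treated and 3 EV-treated BMDE cultures was analysed. Per the labels, the submitters' notes name FastQC, cutadapt, Salmon, DESeq2 and the build mm10; annotation and strandedness are not given in the sources used here. The authors deposited estimated counts, rounded here to whole numbers, and normalized counts, a signal obtained by the authors with size factors. Their table of fold changes and p-values was not used.

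Counts were tested with edgeR 4.0.16 (R 4.3.3; TMM scaling, filterByExpr, quasi-likelihood test, Benjamini-Hochberg adjustment over 13498 genes, call at an adjusted p under 0.01) and checked on simulated data. CPM are TMM-scaled unless stated; an SE is the log2 fold change over the square root of F. Alternatives used DESeq2 1.42.0, limma 3.58.1 on log2 of deposited normalized counts plus 1, other scalings and filters, and single libraries left out. Depth was 23697620 to 37874426 counts per library.

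Members and lists were chosen with earlier results of these data known. Genes named were the 2 most raised, 2 most lowered and lowest-p member of each complex, all of complex II, catalytic subunits, isoforms, mitochondrially encoded subunits and at most 3 called genes per further list. Ndufa6, Ndufa8, Cox5a, Atp5h, Atp5j, Atp5g1, Cycs, Cyc1 and Adgre1 were added after their values were seen, and 1 called member of complex I is counted but not reported individually here. Lengths are those of principal transcripts in GENCODE vM21. Promoters were matched by symbol to RefSeq; Python 3.11.15 and matplotlib 3.10.9 were used.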

Additional observations from a re-analysis of the deposited data

How the results depend on the processing

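Among the scarce transcripts of complex I assembly factors, SEs of log2 fold changes reached 0.56. Whether the replicate numbers pair the cultures is not given, and the main fit treated them as unpaired. Deviations of same-numbered samples correlated weakly and positively across genes, at 0.117, 0.0846 and 0.0371. Of the 6 samples, 5 correlated best with their own number. With the replicate number as a block, 12 members were higher and 8 lower, and 9 mitochondrially encoded subunits were higher. Without TMM scaling these counts were 5, 13 and 3. At an adjusted p under 0.05 they were 14, 12 and 10. With the adjusted p kept under 0.01 and a change of 1 or more in size on the log2 scale, they were 1, 0 and 1. DESeq2 called 9 mitochondrially encoded subunits. Leaving out 1 culture gave 5 to 10 higher and 3 to 9 lower members, 2 to 10 mitochondrially encoded subunits, and medians of -0.026 to 0.055 for complex I, -0.48 to 0.031 for its assembly factors, -0.070 to 0.089 for complex III, -0.016 to 0.055 for complex V and -0.0024 to 0.048 for all members. Without TMM scaling the medians were -0.17 for complex I, -0.49 for II, -0.13 for III, 0.034 for IV, -0.14 for V and -0.14 for all members; the cause is the scaling itself, which moved the median of all genes to -0.16. The log2 ratio of summed levels was -0.16 on library totals and -0.016 with TMM for all members, and with TMM 0.0045 for complex I, -0.31 for II, -0.11 for III, 0.14 for IV and -0.056 for V. Removing the length trend, an alternative chosen after seeing the data, left 6 higher and 8 lower members. Ndufb1, Cox6c, Cox8a, Cox5a, Sdha and Uqcrc2 kept their calls in all 14 alternative fits.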
